A study of Rattus norvegicus with 8 samples.

Results

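Mitochondrial carriers of the solute carrier family Slc25 were examined in the liver of rats fed an iron-deficient or a control diet. Members were the genes whose array probe sets carry exactly 1 platform symbol of the form Slc25a followed by a number, without Slc25a15 and Slc25a20. The rule gave 37 genes of 14217 named genes on the array, through 50 probe sets of 31042, and for each gene the brightest probe set on average over the 8 arrays stood for it. Per the labels, the animals were male Sprague-Dawley rats, an outbred strain, aged 7 weeks. The iron-deficient group ate a diet made without ferric citrate until day 17, and the control group the same diet with it; both held Avicel instead of cellulose. Over the last days food was offered in daytime hours only. Livers were taken after 1.5 h of feeding, when the hemoglobin of the iron-deficient group was at 42% of the control level. The diets were given to 7 and 6 rats, and 4 arrays per diet were deposited. The labels call them biological replicates and do not say which rats they came from.

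Slc25 carriers sit mainly in the inner mitochondrial membrane and exchange nucleotides, phosphate, amino acids, organic acids, cofactors and metal ions between cytosol and matrix. The mitoferrins, encoded by Slc25a37 and Slc25a28, bring iron into the matrix, where heme and iron-sulphur clusters are built. In liver, other members serve ATP export, the malate-aspartate shuttle, the urea cycle and the export of citrate for lipid synthesis.

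The deposited values are log2 levels on a common scale, from 5.32 to 16.1 over all probe sets, with array medians between 7.1195 and 7.1205. Differences between arrays are compressed on this scale, more in some probe sets than in others. In 35 of the 37 members the whole range over the 8 arrays was under 0.001. The within-group SD ran from 3.10e-07 for Slc25a5 to 0.0502 for Slc25a30. Differences cannot be read as fold changes here, and sizes were not compared between members. Beside the difference and its limma SE stands a standardised difference, in multiples of the within-group SD. Precision is limited by the 4 arrays of each diet. As a check of the diet groups, Hamp, the gene of the iron hormone hepcidin, differed by -8.16 ± 0.864 (SE, limma adjusted p = 0.0735), lower in all 4 iron-deficient arrays. Iron-deficient replicate 2 stood apart from its group for this gene, so the counts of members are also given without it. The transferrin receptor gene Tfrc was higher by 0.0373 ± 0.00145 (SE, n = 4 per group, limma adjusted p = 0.00120). Of 6 hepatocyte markers, none was below the 25th percentile of level. As deposited 2 were higher and 4 lower, with a median standardised difference of -0.428. Asgr1, chosen after its values were seen, was the one without overlap, lower with a standardised difference of -1.59, though not under quantile normalization. Under that scaling 6 of the 6 were higher, with Hamp removed before it 0, and under median centring 5.

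The comparison of the diets asked which carrier transcripts differ in iron-deficient liver. No member passed limma's threshold of 0.05 after Benjamini-Hochberg adjustment over all 31042 probe sets, where 0.0422% of all named genes did. The lowest adjusted p was 0.140, for Slc25a36. At an unadjusted p under 0.05 there were 5 members, 4 higher and 1 lower, against 5.74% of all named genes higher and 7.50% lower (13.2% in all). The same 5 were the members whose groups did not overlap. Slc25a4, Slc25a21, Slc25a36 and Slc25a45 were higher in all 4 iron-deficient arrays than in any control, and Slc25a28 was lower. That makes 13.5% of the members, where 7.82% of all named genes did not overlap (3.42% higher, 4.40% lower). Under quantile normalization 6 members were without overlap, and Slc25a21 was the one of these 5 among them, so Slc25a4, Slc25a36, Slc25a45 and Slc25a28 overlapped there. Under median centring no member was without overlap, and under quantile normalization with Hamp removed first 2 were, both lower and neither of them among these 5. Median centring cannot show whether members stay apart. It adds the spread of the array medians, 7.1195 to 7.1205, to every member, and 35 of the 37 ranged over less than 0.001. Without iron-deficient replicate 2 the count was 8, with Slc25a38 added on the higher side and Slc25a13 and Slc25a14 on the lower. With fewer arrays, groups of any gene are apart more easily. The share of all named genes without overlap was not counted under these other settings, and the 7.82% does not apply to them.

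In the values as deposited, 12 members were higher and 25 lower, so 32.4% were higher where 47% of all named genes were. Without iron-deficient replicate 2, and likewise without replicate 3, 17 were higher and 20 lower. The median standardised difference was -0.374 over the members and -0.0727 over all named genes. The former was -0.613 without iron-deficient replicate 1 and -0.242 without replicate 2. It was -0.0187 under quantile normalization, -0.514 with Hamp removed before it and 0.159 under median centring. The direction of small differences depends on how arrays are scaled. The array medians themselves differ by -5.06e-05 between the diets, which is more than the difference of 29 of the 37 members and is what median centring removes. The share of members that were higher was 54.1% under quantile normalization, 24.3% with Hamp removed before it, and 83.8% under median centring. For all named genes these shares were 55.8%, 34.2% and 90.8%, so the share among carriers was the smaller of the pair under each scaling. With Hamp removed, 9 members were higher and 24 lower, and Slc25a5, Slc25a13, Slc25a22 and Slc25a42 had a difference of 0. In the lists of related genes and markers, some genes not counted as higher also had a difference of 0 there. Among the 19 members whose probe sets lay above the 75th percentile of the arrays, 4 were higher and 15 lower as deposited, and 41.6% of all named genes at such levels were higher. Among the other 18 members 8 were higher and 10 lower, and the 4 members that were higher without overlap are all among these. Nothing particular to the family was tested with these shares.

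**Figure D1:**
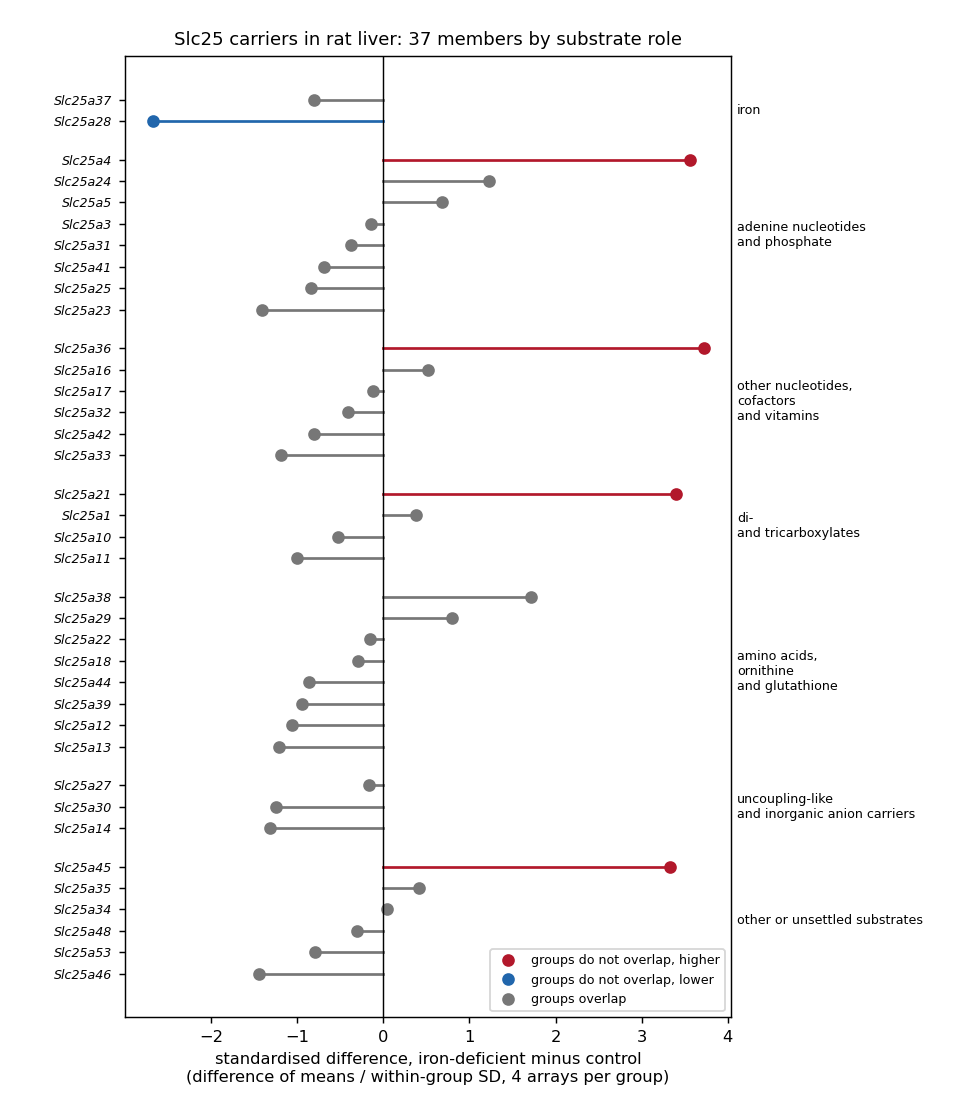
Standardised difference (iron-deficient minus control, in within-group SDs, 4 arrays per group) of the 37 members, as deposited, arranged by substrate role. Red points are the 4 members higher without overlap of the groups, the blue point is Slc25a28, and grey points are members whose groups overlap, at -1.44 to 1.71. Signs near 0 turn with the scaling of the arrays, and of the coloured points Slc25a28, Slc25a36 and Slc25a45 turned under at least 1 scaling.

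Both mitoferrin genes had the lower mean in iron-deficient liver, and 1 of them was without overlap. Slc25a28 encodes mitoferrin-2, the form used outside red cell precursors. Relative to its control mean, and in units of 1e-06 log2, its iron-deficient arrays 1 to 4 read -22.5, -38.8, -9.37 and -25.4. The control arrays read -1.16, -2.70, 5.82 and -1.96. Every iron-deficient array lay below every control array, with replicate 3 nearest to the controls and replicate 2 farthest. The difference was -2.40e-05 ± 6.11e-06 (SE, n = 4 per group), or in standardised form -2.68, with a limma p of 0.00642 and a limma adjusted p of 0.250. The exact permutation test over the 8 arrays gave a two-sided p of 0.0286, the smallest it can give with 70 splits. Leaving out arrays one at a time gave limma adjusted p-values from 0.159 to 0.474, and over all alternatives from 0.159 to 0.965. The sign was kept under both quantile normalizations and turned under median centring, which adds more to the difference than its own size.

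Slc25a37 encodes mitoferrin-1, which supplies iron for heme synthesis in red cell precursors and is also present in other tissues. In the same units its iron-deficient arrays 1 to 4 read -33.4, -2.41, -93.9 and -25.0. Its control arrays read -72.1, 31.4, 53.4 and -12.7. The groups overlapped, since control replicate 1 was lower than 3 of the 4 iron-deficient arrays. The difference was -3.87e-05 ± 3.24e-05 (SE, n = 4 per group), or in standardised form -0.807 (limma adjusted p = 0.721, exact permutation test two-sided p = 0.286). It turned positive under median centring and kept its sign under both quantile normalizations. Without iron-deficient replicate 3 the difference was -2.03e-05 with a limma p of 0.551, without control replicate 3 it was -2.09e-05, and without control replicate 1 it was -6.27e-05. In the last case the limma p was 0.0610 and the adjusted p 0.391, in a range from 0.391 to 0.981 over all alternatives. Each mitoferrin gene had 1 probe set, so neither could be checked against another. In bulk liver, fewer cells of a type and less RNA per cell cannot be told apart. Red cell and erythroid precursor markers, in which Slc25a37 is known to be abundant, were higher in 6 and lower in 4 of 10 measured as deposited, with a median standardised difference of 0.420. Under quantile normalization 3 of the 10 were higher, with Hamp removed before it 2, and under median centring 8. Ahsp, the chaperone of alpha globin, named after its values were seen, was the erythroid marker without overlap, at a standardised 2.93 (limma adjusted p = 0.219). The 4 lower markers were Gata1 at -1.93, Hemgn at -1.21 and the globin genes Hba-a3 at -0.920 and Hbb at -0.472. Of the 10 markers, 2 lay below the 25th percentile of the arrays, and the mean level of the list was 7.844 to 7.848 in iron-deficient and 7.845 to 7.849 in control arrays. That mean mostly follows Alas2, Hba-a3 and Hbb, whose within-group SDs of 0.00322 to 0.00819 exceed those of the other markers. Their part in the mitoferrin values was not tested.

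**Figure D2:**
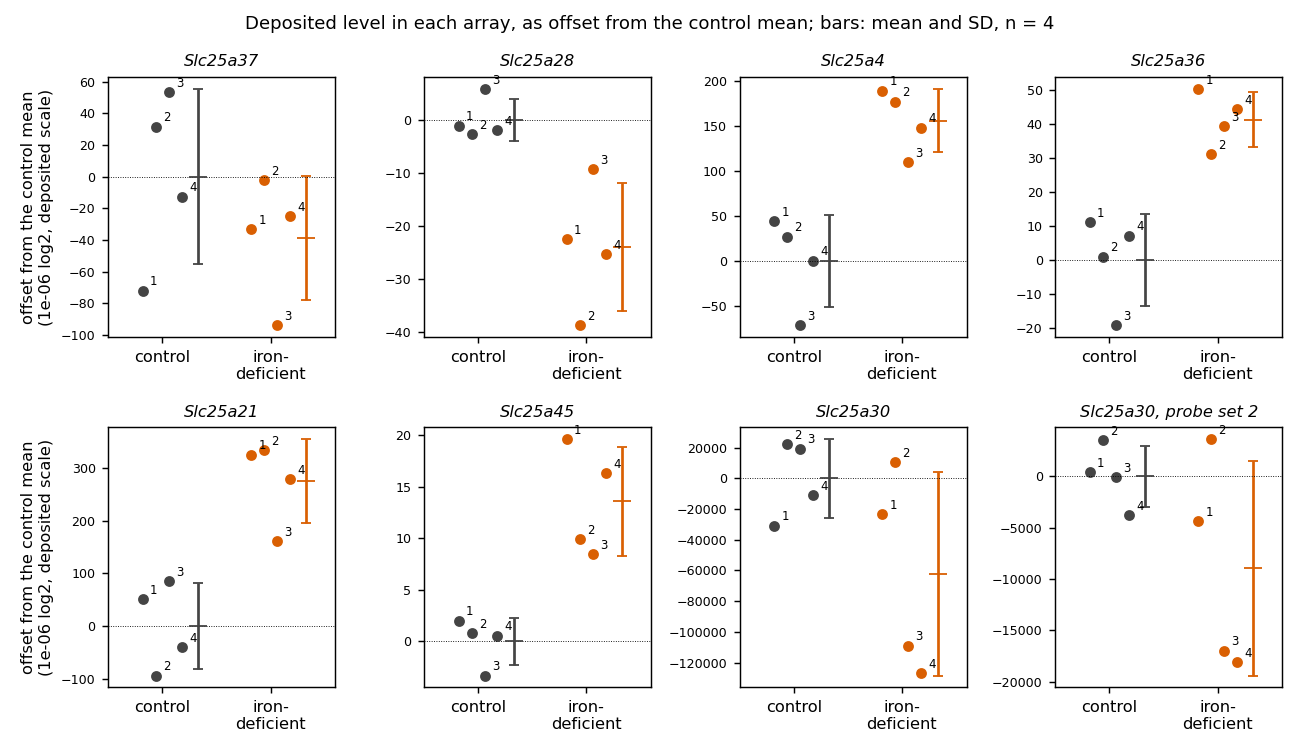
Deposited level in each array as an offset from the control mean (vertical axis, 1e-06 log2, a separate scale in each panel) for control and iron-deficient arrays, with replicate numbers beside the points and the mean and SD (n = 4) as bars. The groups are apart for Slc25a28, Slc25a4, Slc25a36, Slc25a21 and Slc25a45. Slc25a37 overlaps, and both probe sets of Slc25a30 place iron-deficient replicates 3 and 4 below every control.

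The clearest separations were in the opposite direction. Slc25a36 transports pyrimidine nucleotides into mitochondria. Its iron-deficient arrays 1 to 4 read 50.4, 31.2, 39.5 and 44.4 in units of 1e-06 log2 from the control mean. Its control arrays read 11.1, 0.950, -19.2 and 7.23. All iron-deficient arrays were higher, and control replicate 3 was the lowest of the 8. The difference was 4.14e-05 ± 7.55e-06 (SE, n = 4 per group), or in standardised form 3.72 (limma p = 0.00115, adjusted p = 0.140, exact permutation test two-sided p = 0.0286). A further probe set of the gene was also higher, by 3.63e-05 with a standardised difference of 1.83, but its groups overlapped. The probe sets correlated at 0.713 across the 8 arrays. The sign turned under quantile normalization with Hamp removed first (-4.87e-05).

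Slc25a4 encodes the ADP/ATP carrier ANT1, the form prominent in heart and skeletal muscle, which exports ATP from the matrix. Its iron-deficient arrays 1 to 4 read 189, 177, 110 and 148 in the same units, and its control arrays 44.3, 26.9, -71.4 and 0.229. The lowest iron-deficient array, replicate 3, was above the highest control, replicate 1. The difference was 1.56e-04 ± 2.96e-05 (SE, n = 4 per group), or in standardised form 3.56 (limma p = 0.00142, adjusted p = 0.153, exact permutation test two-sided p = 0.0286). It kept its sign under every scaling, with standardised differences from 0.681 under median centring to 1.79 under quantile normalization. Slc25a5, the ADP/ATP carrier ANT2 of most tissues, had a standardised difference of 0.678 (2.10e-07 ± 7.23e-07), and its groups overlapped. Its probe set read 13.3 on the deposited scale, and the size of its difference cannot be compared with that of Slc25a4. Slc25a31, the testis form of the ADP/ATP carrier, read 6.23, which is under the 25th percentile of level (6.55), and detection above background was not measured.

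Slc25a21 carries oxodicarboxylates such as 2-oxoadipate, an intermediate of lysine and tryptophan breakdown. Its iron-deficient arrays 1 to 4 read 325, 334, 161 and 279 in units of 1e-06 log2 from the control mean. Its control arrays read 50.3, -94.4, 84.3 and -40.2. The groups were apart, with iron-deficient replicate 3 nearest to the controls. The difference was 2.75e-04 ± 5.47e-05 (SE, n = 4 per group), or in standardised form 3.40 (limma p = 0.00183, adjusted p = 0.167, exact permutation test two-sided p = 0.0286). It was positive under both quantile normalizations, with a standardised difference of 3.13, and of 2.07 with Hamp removed first. Under median centring, where a positive difference cannot turn, it was 1.07.

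Slc25a45, whose substrate is treated as unsettled here, read 19.6, 9.91, 8.47 and 16.3 in the iron-deficient arrays 1 to 4, in the same units. The control arrays read 2.00, 0.764, -3.32 and 0.553. All iron-deficient arrays were higher, with replicate 3 nearest to the controls. The difference was 1.36e-05 ± 2.84e-06 (SE, n = 4 per group), or in standardised form 3.33 (limma p = 0.00239, adjusted p = 0.185, exact permutation test two-sided p = 0.0286). Its sign turned under both quantile normalizations (-1.12e-04). With each array left out in turn, the unadjusted limma p of Slc25a36, Slc25a4, Slc25a21 and Slc25a45 stayed at or below 0.00835, and the lowest adjusted p of the 4 was 0.151. Over all alternatives their limma adjusted p-values ran from 0.0694, for Slc25a21, to 0.964.

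The regions before the start sites of members without overlap are shown for the 4 of them in the promoter table, as the sequence context of their transcripts. The 250 bases upstream of the RefSeq start in build GRCr8 were searched on both strands for ACGTG and GCGTG, the core letters of the hypoxia response element, and for the core of the nuclear respiratory factor 1 motif. ACGTG and GCGTG do not share a start, but a palindromic CACGTG would hold ACGTG on both strands. Matches are in capitals. Slc25a28 lies at chr1:252491343-252491592 on the minus strand, Slc25a4 at chr16:52805271-52805520 on the plus strand, Slc25a21 at chr6:80437721-80437970 on the minus strand and Slc25a45 at chr1:212596601-212596850 on the plus strand.
Slc25a28: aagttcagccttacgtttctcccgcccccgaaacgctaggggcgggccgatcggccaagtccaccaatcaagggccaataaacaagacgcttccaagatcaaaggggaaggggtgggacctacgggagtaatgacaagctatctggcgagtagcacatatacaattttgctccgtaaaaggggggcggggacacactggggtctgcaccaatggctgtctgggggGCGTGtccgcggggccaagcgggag
Slc25a4: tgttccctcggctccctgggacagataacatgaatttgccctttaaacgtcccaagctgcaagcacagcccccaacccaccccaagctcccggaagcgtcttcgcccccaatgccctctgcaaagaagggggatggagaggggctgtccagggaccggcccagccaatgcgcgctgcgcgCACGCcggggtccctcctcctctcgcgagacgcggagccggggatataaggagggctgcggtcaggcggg
Slc25a21: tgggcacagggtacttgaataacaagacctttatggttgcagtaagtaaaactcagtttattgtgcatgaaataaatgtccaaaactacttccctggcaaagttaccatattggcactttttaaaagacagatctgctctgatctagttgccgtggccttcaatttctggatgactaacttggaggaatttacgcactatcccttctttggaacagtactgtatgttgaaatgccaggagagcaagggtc
Slc25a45: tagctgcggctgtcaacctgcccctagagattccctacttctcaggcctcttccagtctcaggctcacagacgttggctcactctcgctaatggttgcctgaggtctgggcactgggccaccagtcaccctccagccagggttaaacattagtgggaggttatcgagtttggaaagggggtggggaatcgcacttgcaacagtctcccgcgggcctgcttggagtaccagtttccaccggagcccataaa
GCGTG was found in the windows of Slc25a28 and Slc25a4, and the windows of Slc25a21 and Slc25a45 held none of the searched letters. Of 33 windows for 32 members in the table, 13 (39.4%) held GCGTG, as did 25.9% of 33469 promoter windows of the same length. ACGTG was in 6 member windows (18.2%) and in 16.6% of all, and the nuclear respiratory factor 1 core in 0 of 33 and in 3.75% of all. Slc25a30, Slc25a32, Slc25a36, Slc25a37 and Slc25a46 had no entry. A match is a description of the letters and not of binding.

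The remaining members are described by role, with no member called. Of 8 carriers of adenine nucleotides and phosphate, 3 were higher and 5 lower as deposited, with a median standardised difference of -0.255. Slc25a23 and Slc25a24, calcium-regulated carriers of ATP-Mg and phosphate, had standardised differences of -1.40 (difference -8.78e-05 ± 4.22e-05) and 1.23 (3.48e-05 ± 1.91e-05). The iron-deficient arrays of Slc25a23 read 12.3, -119, -144 and -100 against -42.5, 37.8, 56.4 and -51.7 in the controls, so replicate 1 alone kept the groups from separating. Its sign turned under quantile normalization, that of Slc25a24 when Hamp was removed before it. The other 5 were Slc25a3, the mitochondrial phosphate carrier, Slc25a5, Slc25a25, Slc25a31 and Slc25a41, with standardised differences from -0.833 to 0.678.

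Of 6 carriers of other nucleotides, cofactors and vitamins, 2 were higher and 4 lower. Beside Slc25a36, its relative Slc25a33, also a pyrimidine nucleotide carrier, had a standardised difference of -1.18 (-1.20e-04 ± 6.87e-05) and stayed lower under every scaling. Slc25a42, which exchanges coenzyme A, stood at -0.799 (-4.28e-05 ± 3.62e-05), and turned positive under quantile normalization and median centring. Slc25a16, the peroxisomal carrier Slc25a17 and the folate and FAD carrier Slc25a32 ranged from -0.412 to 0.520. Among 4 carriers of di- and tricarboxylates, 2 were higher and 2 lower. Slc25a11, the oxoglutarate-malate carrier of the malate-aspartate shuttle, stood at -1.0 (-1.31e-05 ± 8.87e-06), and Slc25a10, the dicarboxylate carrier, at -0.523 (-2.46e-05 ± 3.19e-05). Both turned positive under quantile normalization and median centring, and Slc25a10 also with Hamp removed before quantile normalization and without control replicate 3 (2.74e-06). Slc25a1, the citrate carrier, had a standardised difference of 0.377, which turned negative under both quantile normalizations.

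Of 8 carriers of amino acids and glutathione, 2 were higher and 6 lower, with a median standardised difference of -0.577. Slc25a38, the glycine carrier needed for heme synthesis in red cell precursors, stood at 1.71 and was positive under both quantile normalizations. Median centring raises every difference and could not turn its sign. In units of 1e-06 log2 from the control mean its iron-deficient arrays 1 to 4 read 2.19, 0.182, 1.24 and 1.85, and its control arrays 0.327, -0.534, -0.630 and 0.837. Iron-deficient replicate 2 fell within the control range and the other 3 lay above it (difference 1.37e-06 ± 8.77e-07, limma adjusted p = 0.623). Slc25a13, the liver aspartate-glutamate carrier citrin, stood at -1.21 (-5.65e-06 ± 3.22e-06) and turned positive under quantile normalization and median centring. Its further probe set had the opposite sign, with a standardised difference of 0.551 and a within-group SD 56.3 times as large. The other 6 were Slc25a12, the aspartate-glutamate carrier aralar, the glutamate carriers Slc25a18 and Slc25a22, Slc25a29, which carries basic amino acids, Slc25a39, which imports glutathione, and Slc25a44, which carries branched-chain amino acids. Their standardised differences ran from -1.05 to 0.796.

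All 3 uncoupling-like carriers had the lower mean as deposited. Slc25a30, also known as kidney mitochondrial carrier protein 1, had the largest spread of the members on the deposited scale, with a within-group SD at the 99.9th percentile of all probe sets. Its iron-deficient arrays 1 to 4 had offsets of -23300, 10400, -109000 and -127000 in units of 1e-06 log2, and its control arrays -30800, 22400, 19400 and -11000. Iron-deficient replicates 3 and 4 were far below all controls, while replicates 1 and 2 lay within the control range. The further probe set of Slc25a30 showed the same division, with -4410, 3590, -17000 and -18100 in iron-deficient arrays and 406, 3490, -104 and -3790 in controls, except that replicates 1 and 2 lay just outside the control range. The probe sets correlated at 0.957 across the 8 arrays. The difference was -0.0622 ± 0.0339 (SE, n = 4 per group), or in standardised form -1.24 (limma adjusted p = 0.555), and it was negative under every scaling. Without iron-deficient replicate 4 the difference was -0.0408 and the limma p 0.249, and without replicate 3 they were -0.0465 and 0.244. Without iron-deficient replicate 2 the difference was -0.0864 and the limma p 0.0273, with an adjusted p of 0.453, in a range from 0.426 to 0.964 over all alternatives. Slc25a14, a brain-enriched carrier also called UCP5, stood at -1.31 (-9.65e-06 ± 5.01e-06) and turned positive under median centring. Slc25a27, or UCP4, stood at -0.165.

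Of 6 members with other or unsettled substrates, 3 were higher and 3 lower. Slc25a46, a carrier-like protein of the outer membrane that shapes mitochondria, stood at -1.44 (-1.61e-06 ± 1.02e-06), but it turned positive under every other scaling and its further probe set stood at 0.980. Slc25a53 stood at -0.793 (-2.23e-06 ± 2.02e-06) and turned positive under median centring. Slc25a34, Slc25a35 and Slc25a48 ranged from -0.299 to 0.416. Among the 11 members with more than 1 probe set, all probe sets had 1 direction in 6. The probe sets disagreed for Slc25a13, Slc25a23, Slc25a27, Slc25a39 and Slc25a46.

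How often each array was the highest or the lowest of its group was counted, and whether these counts are uneven was not tested. Control replicate 3 was the highest or the lowest control in 23 of the 37 members and control replicate 1 in 22, against 13 for control replicate 2. Among iron-deficient arrays replicate 3 was the lowest in 16 members and replicate 1 the highest in 13.

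Genes around the family were counted from lists of related transporters, import proteins and enzymes. None of their members passed over all genes. Of 5 carriers with other symbols, 3 were higher, and Mtch1, Ucp1 and Ucp2 had standardised differences of -1.40, 0.593 and 0.213. Mtch1 turned positive under quantile normalization and median centring, Ucp1 turned negative under both quantile normalizations, and Ucp2 stayed positive under both. Of 17 other mitochondrial transporters, 6 were higher and 11 lower as deposited, with a median standardised difference of -0.705. Without overlap were 1 higher and 1 lower, or 11.8% of the list, against 7.82% of all named genes. Of these 17, 12 were higher under quantile normalization, 3 with Hamp removed before it and 13 under median centring. Sfxn1, a mitochondrial serine transporter, stood at -2.78 (-3.76e-04 ± 9.14e-05, limma adjusted p = 0.236), without overlap. Vdac3, an outer membrane channel named after its values were seen, was higher without overlap at 1.88, but lower with Hamp removed before quantile normalization. Mpc2, a subunit of the pyruvate carrier, stood at -2.10 and Abcb8, an ABC transporter of the inner membrane, at -2.14. Sfxn1 and Abcb8 turned positive under quantile normalization, and Abcb8 also under median centring. Of 16 proteins that import carriers into the inner membrane, 9 were higher and 7 lower as deposited, with a median of 0.0730. Without overlap were 12.5% of them, against the same 7.82%. Under quantile normalization 14 were higher, with Hamp removed before it 7, and under median centring 15. The small chaperone gene Timm13 was lower without overlap at -3.17 (limma adjusted p = 0.206), but turned positive under quantile normalization and median centring. Tomm20, a receptor of the outer membrane, was higher without overlap at 2.37 and stayed positive under both quantile normalizations. Tomm7 stood at -1.51 but turned positive under quantile normalization and median centring.

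Of 15 enzymes that work beside the carriers, 3 were higher and 12 lower, with a median standardised difference of -1.13. Of the list, 6.67% were without overlap, against 7.82% of all named genes. Gpd2 and Gpd1, the enzymes of the glycerol phosphate shuttle, stood at -1.94 and -1.90, with Gpd2 without overlap and lower under every scaling and Gpd1 positive under quantile normalization. Got1, the cytosolic aspartate aminotransferase of the malate-aspartate shuttle, stood at 1.52 (0.00698 ± 0.00309) and was positive under both quantile normalizations. Under quantile normalization 14 of these 15 enzymes were higher, 3 of 15 with Hamp removed before it and 9 of 15 under median centring.

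**Figure D3:**
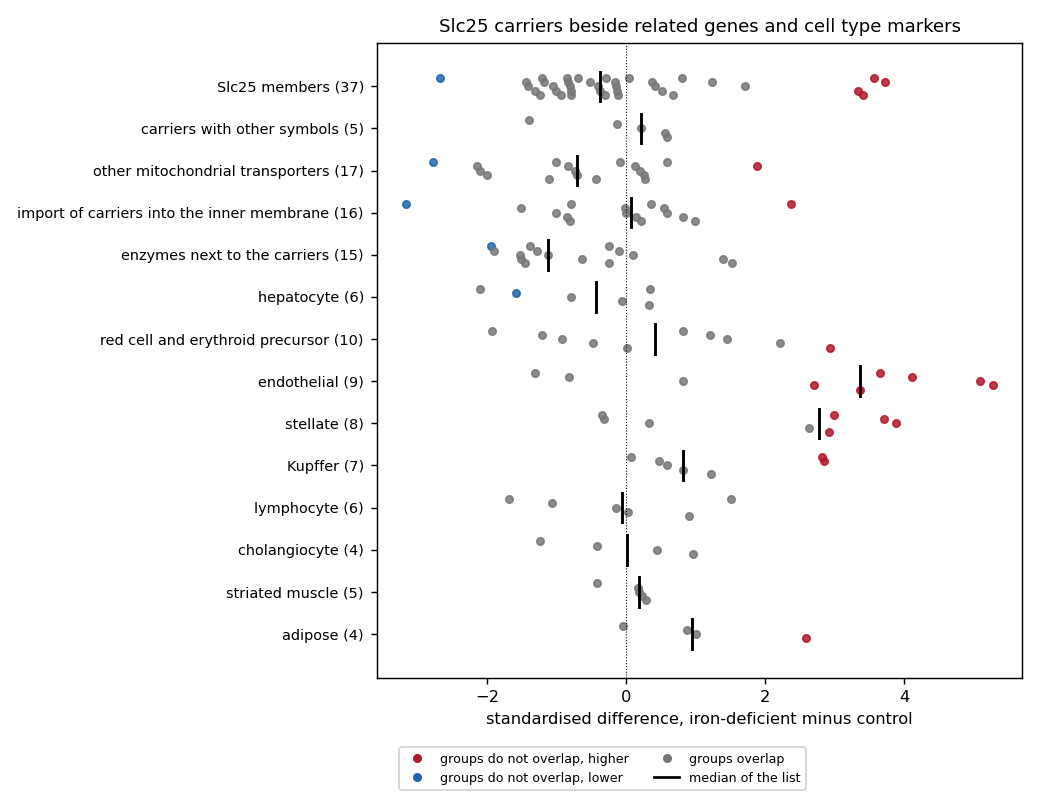
Standardised difference (iron-deficient minus control, in within-group SDs) of the 37 members, of 4 lists of related genes and of 9 lists of cell type markers, with the number of measured genes in brackets and a black bar at each median. Points without overlap of the groups are red when higher and blue when lower. The members' median of -0.374 lies between those of the import proteins and the other transporters, and the endothelial median of 3.37 is the highest as deposited.

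Most endothelial, stellate and Kupffer markers were higher as deposited. Of 9 endothelial markers 7 were higher, 6 of them without overlap. Among these were Egfl7 and Flt1 with standardised differences of 5.28 and 5.09 (limma adjusted p = 0.0735 and 0.0801). Of 8 stellate cell markers 6 were higher, 4 without overlap (Timp1, Lrat, Dcn and Col3a1). These genes were picked for naming after their values were seen, as were Lyz2, Mrc1 and Fabp4 below. The shares without overlap were 66.7% and 50%, against 7.82% of all named genes. Lower were the endothelial markers Stab1 (-1.31) and Kdr (-0.824) and the stellate markers Col1a1 (-0.354) and Des (-0.318). Under quantile normalization 9 endothelial and 5 stellate markers were higher. With Hamp removed before it 8 and 5 were, and under median centring 8 and 8. All 7 Kupffer cell markers were higher as deposited, with Lyz2 and Mrc1 without overlap, and 2 of 7 were higher with Hamp removed before quantile normalization. The mean level of the endothelial list was 9.1113 to 9.1116 in iron-deficient and 9.1108 to 9.1109 in control arrays, and that of the stellate list 7.9104 to 7.9110 and 7.9097 to 7.9101. These means mostly follow Flt1 and Stab2, and Dcn, Col3a1 and Rgs5, the markers with the largest differences on the deposited scale. No endothelial, stellate or Kupffer marker was under the 25th percentile of level. Striated muscle markers, relevant to Slc25a4, were all overlapping, with a median standardised difference of 0.190 and 1 of 5 below the 25th percentile. Of 4 adipose markers 3 lay below that percentile, and Fabp4 was higher without overlap. Lymphocyte markers (3 of 6 higher) and cholangiocyte markers (2 of 4 higher) had medians of -0.0562 and 0.0103, with no marker without overlap. The part of these cell types in the values of Slc25a4, Slc25a21, Slc25a36 and Slc25a45 was not tested.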

How the data were processed

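Liver RNA was measured on Affymetrix rat arrays from biotin-labelled cRNA made from 2 ug of total RNA, per the labels. The deposited values are taken as log2 levels, a unit read from the values. The authors' probe summary and normalization, and any software, were not given in the sources used here. Platform annotation held 1 symbol for 20826 probe sets, several for 436 and none for 9780. Members used platform symbols, and other genes symbols updated through 20758 matched identifiers of RefSeq assembly GRCr8. The 57 control probe sets were left out. Diets were compared in limma (version 3.58.1, R 4.3.3; lmFit, eBayes), with Benjamini-Hochberg adjustment over 31042 probe sets, and single members also with an exact permutation test. The scripts were tested on simulated data. Members, lists and tests were chosen with earlier results of these data known. Members were named with values where the unadjusted p was under 0.05 or groups did not overlap, the mitoferrins always, and then the 2 with the largest standardised difference per role. Members past this rule are given by ranges, except for single values of Slc25a5, Slc25a31, Slc25a1 and Slc25a27. Among related genes the 3 with the largest moderated statistic per list were named. The limma p-values set each difference against the spread between arrays of the same diet. The labels do not tie arrays to rats, so whether each array is a different rat could not be checked. Alternatives were other scalings, filters, variance models, probe set choices, a replicate block and each array left out.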

Additional observations from a re-analysis of the deposited data

Results flagged for a closer look

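Of 74 groups of 4 arrays, 2 for each member, 3 held an array that stood apart from the other 3 by more than Dixon's 95% critical share of the group's range, where chance gives about 1 in 20. Control replicate 3 was high for Slc25a10, with a gap of 0.850 of the range. Control replicate 4 was low for Slc25a14, with a gap of 0.853. Iron-deficient replicate 4 was high for Slc25a46, with a gap of 0.848.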

How the results depend on the processing

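No member was called under median centring, the filter on low probe sets, either variance model, either choice of probe sets, the replicate block, the updated symbols or with any single array left out. Quantile normalization called 4 members higher (Slc25a3, Slc25a5, Slc25a13, Slc25a22), and with Hamp removed first 1 member lower (Slc25a1). The share of all named genes called was not counted under either setting, and the 0.0422% holds for the deposited values only. In both settings Slc25a5, Slc25a13 and Slc25a22 lost all spread within groups, so their p-values have no replicate error behind them, whereas Slc25a3 and Slc25a1 kept theirs. Members with an unadjusted p under 0.05 numbered 10 under quantile normalization, 7 of them higher, 7 with Hamp removed before it, 1 of them higher, and 1 under median centring, lower, and 5 to 8 with single arrays left out. Members without overlap numbered 6 under quantile normalization, with Slc25a21 shared with the 5 as deposited, 4 for the probe set with the largest spread, where Slc25a36 overlapped, 2 with Hamp removed before quantile normalization, 0 under median centring and 5 to 8 with single arrays left out. The shares of all named genes with such a p or without overlap were not counted under these settings. Median centring adds the spread of the array medians to every member, so its counts do not test whether groups separate. Members with a positive difference numbered 20 under quantile normalization and 31 under median centring. The median standardised difference ran from -0.613 to -0.242 with single arrays left out. It was -0.0187 under quantile normalization, -0.514 with Hamp removed before it and 0.159 under median centring. Signs turned in 16 members under quantile normalization, 12 with Hamp removed before it, 19 under median centring and 11 with single arrays left out. For the members named with values they turned as follows. Quantile normalization gave 6.74e-04 for Slc25a10, 4.02e-04 for Slc25a11, 0.00186 for Slc25a13, 3.54e-04 for Slc25a23, 3.63e-04 for Slc25a42, -1.12e-04 for Slc25a45 and 3.16e-04 for Slc25a46. With Hamp removed before it, it gave 2.48e-04 for Slc25a10, -1.64e-04 for Slc25a24, -4.87e-05 for Slc25a36, -1.12e-04 for Slc25a45 and 2.35e-05 for Slc25a46. Median centring, which adds 5.06e-05 to every difference by construction, gave 2.59e-05 for Slc25a10, 3.74e-05 for Slc25a11, 4.49e-05 for Slc25a13, 4.09e-05 for Slc25a14, 2.66e-05 for Slc25a28, 1.19e-05 for Slc25a37, 7.82e-06 for Slc25a42, 4.90e-05 for Slc25a46 and 4.84e-05 for Slc25a53. The mean of all probe sets gave 6.93e-05 for Slc25a13 and 5.04e-05 for Slc25a46, and the probe set with the largest spread 1.44e-04 and 1.02e-04. Slc25a10 ran from -3.87e-05 to 2.74e-06 with single arrays left out. For the quantile and probe set settings the cause was not tested. Same-numbered arrays had deviations that correlated at -0.111 to 0.0245 and differently numbered ones at -0.149 to 0.169, so the numbers were not taken as pairs. With the replicate block, 0 members were called and 5 had an unadjusted p under 0.05, and it changed no other call.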
